A study of Danio rerio with 4 samples.

Results

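The genes described here encode RNA-binding proteins that regulate splicing and mRNA fate, among them both zebrafish genes for the cold-inducible RNA-binding protein. Members were taken by symbol alone, from family prefixes plus cirbp and zgc:112425. The families were hnRNP, SYNCRIP, PTB, PCBP, SR, TRA2, SRRM, ELAV, CELF, MBNL, NOVA, RBFOX, KHDRBS, PABPC and IGF2BP. The rule found 66 genes of the 8793 genes with a probe set of 1 symbol, and no expression value entered it. The array's gene table holds the 2 cold-inducible genes as cirbpa and cirbpb, and no member carries the symbol zgc:112425. The members comprised 2 cold-inducible genes, 26 hnRNP genes, 17 genes of SR and SR-related proteins, 15 genes of the ELAV, CELF, NOVA, RBFOX and KHDRBS families, and 6 genes of the PABPC and IGF2BP families.

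The study asked what part microRNAs play in transcriptome changes of the zebrafish brain after cold acclimation, and its arrays compared mRNA levels. Cold samples were brains of adult fish cooled gradually and then held at 10°C for 10 days, and normal samples were brains of adult fish kept at 28°C. Pooled brains of both sexes gave the RNA, from which biotin-labelled cRNA was made for Affymetrix arrays of zebrafish genes. Cold 1 and cold 2, and normal 1 and normal 2, are the 4 arrays analysed here, named by their label and number. Strain and pool size were not given in the sources used here, and neither was the origin of the numbers. The study's text speaks of RNA from several acclimation experiments, and whether the numbers mark these is not stated, so a p-value measures the spread between these pools, which may be partly technical.

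Pre-mRNA splicing is steered by proteins that bind exons and introns near splice sites. SR proteins usually favour the use of a nearby site, whereas many hnRNP proteins repress it, and the balance of both decides which exons enter the mRNA. In mammals many of these genes also regulate their own mRNA through exons that lead to its decay. NOVA, RBFOX, CELF and the neuronal ELAV proteins shape the splicing programme of neurons. CIRBP was named for its induction by mild cold in mammalian cells, where it binds mRNA and affects its stability and the choice of polyadenylation sites.

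The similarity of the arrays went against their labels. Over the 5982 genes tested, the fewest differences of at least 2-fold lay between cold 1 and normal 2, with 133 genes. Cold 1 differed from cold 2 in 701 genes and normal 1 differed from normal 2 in 917 genes. Normal 1 and cold 2 were not as close, and differed in 385 genes. The counts within numbers were 814 genes between cold 1 and normal 1 and 384 genes between cold 2 and normal 2. Over the 9301 probe sets tested, the deviations of same-numbered arrays from their group means had a correlation of -0.295. Labels were kept, no array was regrouped, and each result is therefore given on every array and within each number, where each ratio has 1 array on either side and no test. Whether any label was exchanged was not tested. Median signals of the arrays lay between 95.9 and 102 after the authors' global scaling. Neuron markers were abundant on every array, with summed signals of 28616 on cold 1, 19300 on normal 1, 20653 on cold 2 and 26270 on normal 2, whereas none of the 5 pituitary markers on the array passed the filter.

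Among the members the same split was visible. A signal here is the authors' MAS5 intensity, on a linear scale in arbitrary units, and a gene was above the filter where its mean log2 signal reached the 40th percentile of all probe sets. Of 60 members above the filter, 3 differed at least 2-fold between cold 1 and normal 2, against 2.22% of all genes tested, and 5 between cold 2 and normal 1, against 6.44%. Within the labels, 13 members differed at least 2-fold between cold 1 and cold 2, 21.7% against 11.7% of all genes tested. Between normal 1 and normal 2 it was 16 members, 26.7% against 15.3%. The within-number counts lay close to these, with 13 members between cold 1 and normal 1, 21.7% against 13.6%. Between cold 2 and normal 2 it was 11 members, 18.3% against 6.42%. Member counts within labels were thus at or above those within numbers. Over all genes this did not hold, since cold 1 differed from cold 2 in 701 genes and from normal 1 in 814 genes.

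**Figure D1:**
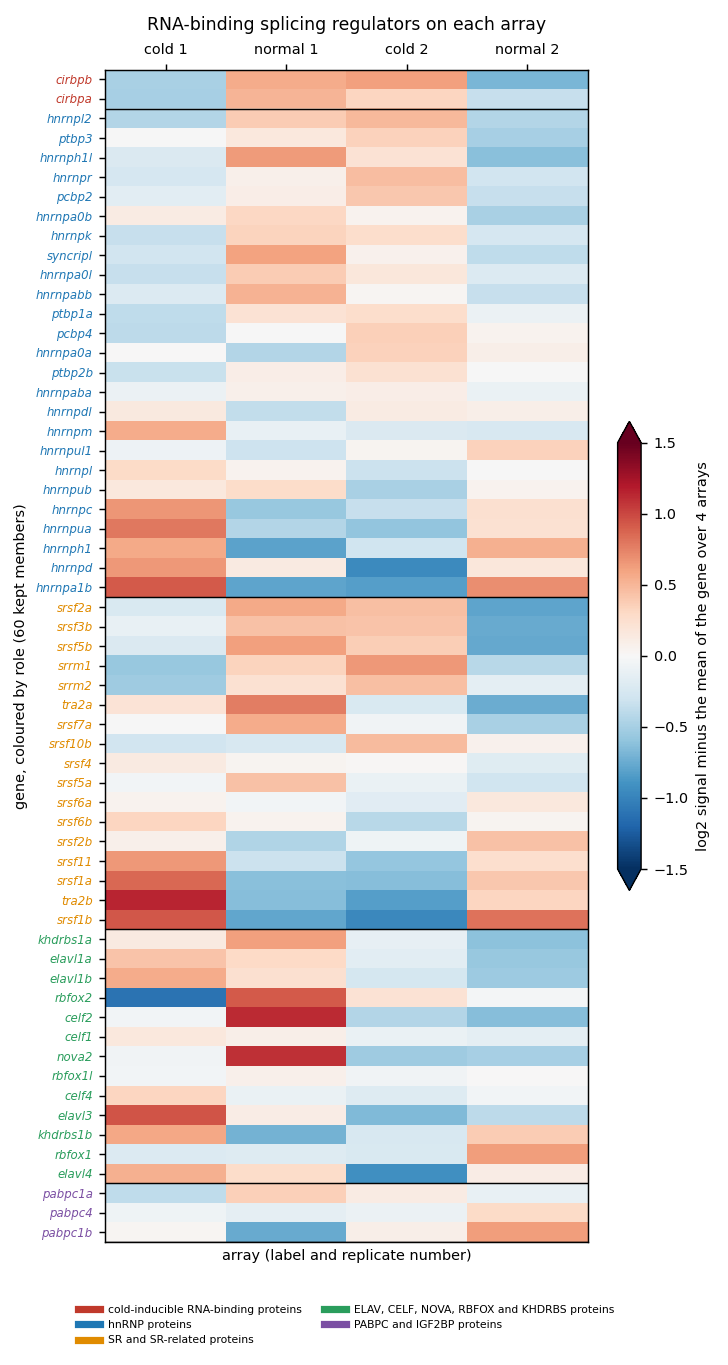
Log2 signal of the 60 members above the filter on each of the 4 arrays, minus the gene's own mean over the arrays, in log2 units (red above the mean, blue below it, rows grouped by protein family). The columns of cold 1 and normal 2 resemble each other, as do those of normal 1 and cold 2, for hnrnpa1b, srsf1a, srsf1b, tra2b and both cirbp genes.

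Between all cold and all normal arrays, none of the 60 members passed a Benjamini-Hochberg adjusted p of 0.05 in limma, against 0% of the 9301 probe sets tested. An unadjusted p under 0.05 was reached by 0.194% of probe sets in the direction of cold and by 0.301% in the direction of normal, and by no member. Evenly spread p-values would give a share of 0.05 over both directions, so the p-values here ran high. The smallest member p was 0.179, for rbfox2, with an adjusted p of 0.99997. With 2 arrays against 2, an exact permutation test of a single gene cannot go below p = 0.333, so that test cannot reach 0.05. The median log2 difference between labels was 0.02 over the members and 0.04 over all genes tested. The members' median had no steady sign, since it was -0.035 after quantile normalization and lay between -0.097 and 0.11 when 1 array at a time was left out.

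Within number 1, 27 members were higher on cold 1, against 54.3% of all genes tested, and 8 exceeded normal 1 by 2-fold or more, which is 13.3% of the members against 8.61% of all genes tested. They were hnrnpa1b, hnrnph1, hnrnpc, hnrnpua, srsf1a, srsf1b, tra2b and khdrbs1b. At least 2-fold lower on cold 1 were 5 members, 8.33% against 5% of all genes tested, namely cirbpa, cirbpb, rbfox2, celf2 and nova2. The genes hnrnpc, hnrnpua and srsf11 were named after their values had been seen, and khdrbs1b as the paralog of a named gene. At the 2-fold limit itself stood cirbpa, with a log2 ratio of -1.002 in number 1, and just inside it srsf11, 1.97-fold higher on cold 1.

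Within number 2, 36 members were higher on cold 2, against 50.9% of all genes tested, and 5 exceeded normal 2 by 2-fold or more, or 8.33% of the members against 2.49% of all genes tested. These were cirbpb, srsf2a, srsf3b, srsf5b and srrm1. The 6 members at least 2-fold lower on cold 2, 10% against a background of 3.93%, were hnrnpa1b, hnrnpd, srsf1a, srsf1b, tra2b and elavl4, the last named after its values had been seen. Near the limit stood elavl4 and srsf1a, with log2 ratios of -1.02 and -1.04 in number 2. Median centring, and a pseudocount of 16, each left 4 members at least 2-fold lower on cold 2. In the signals as deposited, read at the brightest probe set, the share of members beyond 2-fold was above that of all genes in both numbers and both directions. With the mean of a gene's probe sets, 3 members were at least 2-fold lower on cold 1, near the 5% of all genes at their brightest probe set. On cold 2, 3 were then at least 2-fold higher. Without cirbpa and cirbpb the counts were 8 higher (13.8%) and 3 lower (5.17%) on cold 1, and 4 higher (6.9%) and 6 lower (10.3%) on cold 2. The share lower on cold 1 was then near the 5% of all genes. Members were also brighter than all genes tested, with median log2 signals of 9.47 and 7.88. The part of signal level in these shares was not tested.

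The direction of most members turned round between the numbers. Of the 60 members, 29 were lower on cold 1 and higher on cold 2 than on the normal array of the same number, 48.3% against 33.9% of all genes. Another 20 members were higher on cold 1 and lower on cold 2, 33.3% against 37.3%. A further 7 members were higher on both cold arrays than on their same-numbered normal array, 11.7% against 17%, and 4 were lower on both, 6.67% against 11.8%. Across the 60 members the ratios of number 1 and number 2 had a Pearson correlation of -0.79, and across all genes tested of -0.66, as a description across genes, which are not independent replicates. The 2 ratios share no array.

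**Figure D2:**
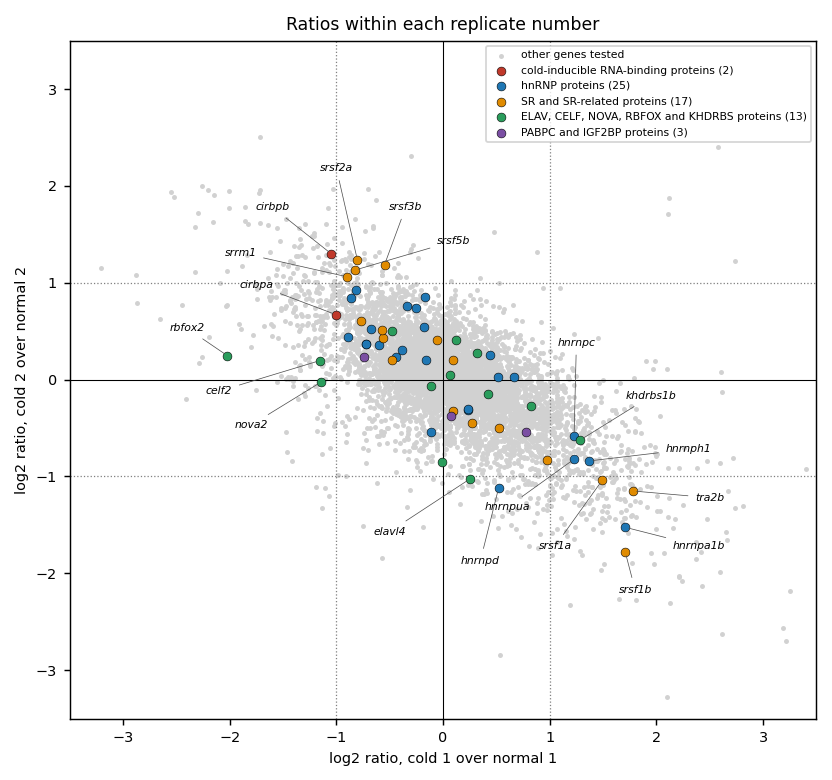
Log2 ratio of cold 1 over normal 1 (x axis) against the log2 ratio of cold 2 over normal 2 (y axis) for each member, coloured by family, and for other genes tested in grey (8 of these lie outside the axes), with dotted lines at 2-fold and names on the members beyond 2-fold in either number. Members lie along a falling diagonal, with cirbpb and srsf2a at the upper left and srsf1b, hnrnpa1b and tra2b at the lower right.

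The labelled groups did not overlap for 3 members. Of these, 1 was higher on both cold arrays than on both normal arrays, 1.67% against 8.78% of all genes tested, and 2 were lower, 3.33% against 5.47%. The member above was hnrnpdl, which encodes an hnRNP D-like protein, with signals of 2184 and 2151 on cold 1 and cold 2, against 1529 and 2103 on normal 1 and normal 2. The gap between cold 2 and normal 2 was small beside that between the normal arrays. Its log2 difference between labels was 0.27 ± 0.32 (SE, n = 2 each), with a limma adjusted p of 0.99997. The members below were rbfox1, described further on, and rbfox1l, named after its values had been seen, which had signals of 79.9 and 79 on cold 1 and cold 2, against 86.5 and 82.5 on normal 1 and normal 2, all close to the filter of 74.5.

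The cirbp genes encode proteins of 1 RNA recognition motif and a glycine-rich tail. Signals of cirbpa were 4138 on cold 1 against 8285 on normal 1, and 7306 on cold 2 against 4591 on normal 2. Those of cirbpb were 3258 on cold 1 against 6741 on normal 1, and 7027 on cold 2 against 2853 on normal 2. Both genes were thus about 2-fold lower on the cold array of number 1 and higher on the cold array of number 2. Cold and normal values overlapped, and normal 1 and cold 2 were the high arrays of both genes. The log2 ratios of number 1 and number 2 were -1.002 and 0.67 for cirbpa and -1.05 and 1.30 for cirbpb. Between labels the log2 difference was -0.17 ± 0.37 (SE, n = 2 each) for cirbpa and 0.13 ± 0.50 (SE, n = 2 each) for cirbpb, with limma adjusted p = 0.99997 for each. The sign turned for cirbpa without cold 1 or normal 1, and its difference lay between -0.59 and 0.26 when 1 array at a time was left out. For cirbpb it turned without cold 2 or normal 2, within a range of -0.49 to 0.75. A further probe set of cirbpb was below the filter, with signals of 45.1 on cold 1 against 54.5 on normal 1, and 58.5 on cold 2 against 56.9 on normal 2. Another 2 probe sets name cirbpb beside a second gene and were not used.

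The hnRNP proteins coat nascent transcripts, and 25 of their 26 genes were above the filter. Their median log2 ratio was -0.16 in number 1 and 0.26 in number 2, against 0.06 and 0.01 over all genes tested. In number 1, 4 of them were at least 2-fold higher and none lower, and in number 2 none was at least 2-fold higher and 2 were lower. These are 16% and 0% of the hnRNP genes in number 1, against 8.61% and 5% of all genes, and 0% and 8% in number 2, against 2.49% and 3.93%. The members hnrnpa0l and hnrnpaba, the hnRNP genes named for their mean signal, differed less than 2-fold within either number. For hnrnpa0l, an A0-like protein whose probe set can take up transcripts of more than 1 gene by its name suffix, signals were 3013 on cold 1 against 4976 on normal 1, and 4286 on cold 2 against 3309.6 on normal 2. For hnrnpaba, of the A/B type, they were 2386 on cold 1 against 2666 on normal 1, and 2717 on cold 2 against 2366 on normal 2. The values of hnrnpaba lay within a narrow band, and normal 1 and cold 2 were the higher arrays for both.

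At the brightest probe set of each gene, the widest contrast of an hnRNP gene was that of hnrnpa1b. This gene is of the A1 type, whose mammalian counterpart represses exons. Signals were 2566 on cold 1 against 785 on normal 1, and 763 on cold 2 against 2197 on normal 2. Cold 1 and normal 2 were thus about equally high and normal 1 and cold 2 about equally low, with log2 ratios of 1.71 and -1.53 in number 1 and number 2. The gene hnrnph1, whose protein binds runs of G, had signals of 226 on cold 1 against 87.1 on normal 1, and 123 on cold 2 against 220.1 on normal 2, again high on cold 1 and normal 2. The signals of hnrnpc, a core protein of hnRNP particles that binds runs of U, were 380.4 on cold 1 against 162 on normal 1, and 190.1 on cold 2 against 285 on normal 2. Those of hnrnpua, of the nuclear scaffold type, were 247 on cold 1 against 106 on normal 1, and 94.9 on cold 2 against 168 on normal 2. All of these genes had cold 1 as their highest array and normal 2 as the next.

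The remaining hnRNP genes named differed in which array stood apart. The gene hnrnpd encodes AUF1, which binds AU-rich elements of unstable mRNAs, and had signals of 234 on cold 1 against 163 on normal 1, and 76.5 on cold 2 against 167 on normal 2. Cold 1 was its highest array, normal 2 and normal 1 were nearly equal, and cold 2 was the lowest. A nearly as bright probe set of hnrnpd read 393 on cold 1 against 120 on normal 1, and 62.2 on cold 2 against 146 on normal 2. At that probe set cold 1 stood further apart. Signals of ptbp3, a polypyrimidine tract-binding protein, were 160.3 on cold 1 against 179.7 on normal 1, and 205 on cold 2 against 114 on normal 2, with cold 2 and normal 1 the higher arrays and normal 2 the lowest. Signals of hnrnpm were 1751 on cold 1 against 1102 on normal 1, and 1024 on cold 2 against 1008 on normal 2, with cold 1 alone high. Log2 differences between labels were 0.34 ± 0.37 (SE, n = 2 each) for ptbp3 and 0.35 ± 0.41 (SE, n = 2 each) for hnrnpm, with limma adjusted p = 0.99997 for each. Without cold 1 the difference of hnrnpm was -0.041, so that its sign rested on that array.

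The plot of signals by array shows these genes beside members of the other families.

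**Figure D3:**
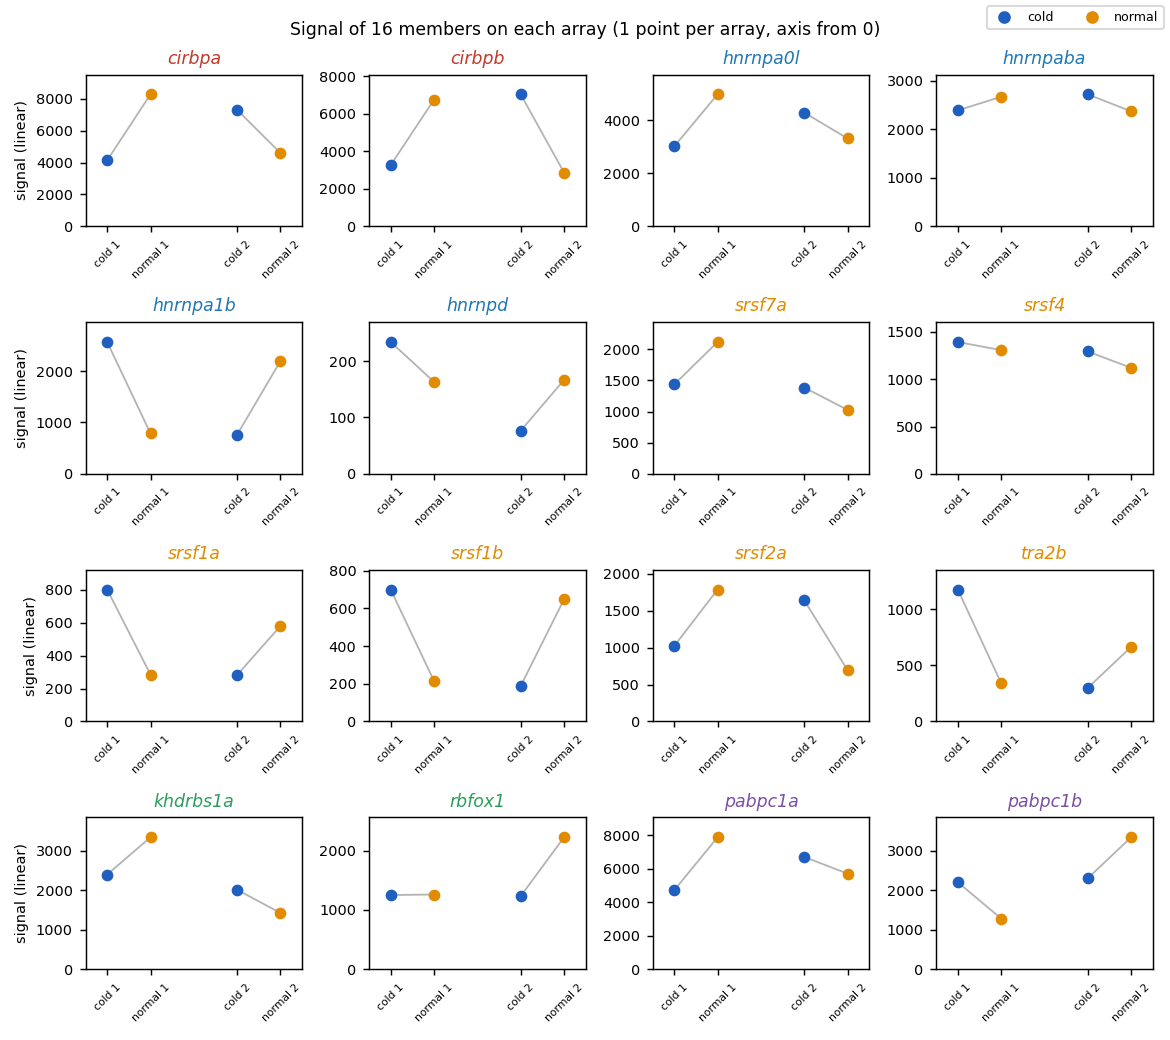
Signal (linear, 1 point per array, each y axis from 0) of 16 members on cold 1, normal 1, cold 2 and normal 2, with cold in blue and normal in orange and a line joining arrays of the same number. The lines slope in opposite directions in the 2 numbers in every panel except those of srsf4 and rbfox1, and rbfox1 was high only on normal 2.

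All 17 genes of SR and SR-related proteins were above the filter, with a median log2 ratio of -0.05 in number 1 and 0.21 in number 2. In number 1, 3 were at least 2-fold higher on the cold array and none lower. In number 2, 4 were at least 2-fold higher and 3 lower. The shares were 17.6% and 0% in number 1, against 8.61% and 5% of all genes, and 23.5% and 17.6% in number 2, against 2.49% and 3.93%. The 3 were the same genes in both numbers, srsf1a, srsf1b and tra2b. The gene srsf1b encodes an SR protein of the SRSF1 type, which promotes the use of weak splice sites, and had signals of 699 on cold 1 against 214 on normal 1, and 188 on cold 2 against 648 on normal 2. Its partner srsf1a had signals of 800.4 on cold 1 against 285 on normal 1, and 282 on cold 2 against 580.1 on normal 2. Signals of tra2b, a splicing activator that binds GAA-rich exonic enhancers, were 1176 on cold 1 against 342 on normal 1, and 299.6 on cold 2 against 665 on normal 2. For each of these genes cold 1 and normal 2 were the high arrays, and no array of the low pair reached any of the high pair. A further probe set of srsf1b read 313 on cold 1 against 86.7 on normal 1, and 76.9 on cold 2 against 379 on normal 2, the same order of high and low pairs.

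The SR genes 2-fold or more above normal 2 on cold 2 had the reverse order. Signals of srsf2a, whose protein binds exonic enhancers and also takes part in transcription elongation, were 1023 on cold 1 against 1785 on normal 1, and 1639.8 on cold 2 against 695 on normal 2. Signals of srsf3b, of the smallest SR protein type, were 825 on cold 1 against 1207 on normal 1, and 1203 on cold 2 against 528 on normal 2. Those of srsf5b were 828 on cold 1 against 1470.0 on normal 1, and 1241 on cold 2 against 567 on normal 2. In these genes normal 1 and cold 2 were the high arrays and normal 2 was the lowest. The gene srrm1, which encodes a splicing coactivator rich in serine and arginine, had signals of 853 on cold 1 against 1589.7 on normal 1, and 1982 on cold 2 against 949 on normal 2, with cold 1 instead as the lowest array. Its other probe set above the filter read 154 on cold 1 against 273 on normal 1, and 264 on cold 2 against 137 on normal 2.

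The SR genes named for their mean signal differed less than 2-fold within either number. Signals of srsf7a, an SR protein with a zinc knuckle that also aids mRNA export, were 1437 on cold 1 against 2119 on normal 1, and 1386 on cold 2 against 1027 on normal 2. Signals of srsf4 were 1393 on cold 1 against 1307 on normal 1, and 1293 on cold 2 against 1119.9 on normal 2. The arrays of srsf4 lay within a narrow band, and its cold and normal values overlapped.

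Of the 15 genes of the ELAV, CELF, NOVA, RBFOX and KHDRBS families, 13 were above the filter. Their median log2 ratios of 0.06 in number 1 and -0.03 in number 2 were near those of all genes. This family group held 3 of the 4 members that were lower on both cold arrays than on the same-numbered normal array, and 3 of the 7 that were higher. Each was 23.1% of the 13 genes, against 11.8% and 17% of all genes tested. The lower genes had log2 ratios near 0 in at least 1 number. These were -0.01 for rbfox1 in number 1, -0.03 for nova2 in number 2, and -0.11 and -0.06 for rbfox1l in number 1 and number 2. The gene rbfox1 encodes a neuronal and muscle splicing regulator that binds the letters GCAUG, and had signals of 1253 and 1234 on cold 1 and cold 2, against 1261 and 2229 on normal 1 and normal 2. Only normal 2 stood apart, and cold 1 and normal 1 were nearly equal. The log2 difference between labels was -0.43 ± 0.40 (SE, n = 2 each), with a limma adjusted p of 0.99997, and without normal 2 it was -0.021.

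Its paralog rbfox2 had signals of 202 on cold 1 against 823 on normal 1, and 508 on cold 2 against 427 on normal 2. Cold 1 was the lowest and normal 1 the highest array, and the arrays of number 2 lay between them. The log2 difference of -0.89 ± 0.59 (SE, n = 2 each) had a limma adjusted p of 0.99997 and lay between -1.55 and -0.22 when 1 array at a time was left out. A dimmer probe set of rbfox2 read 368 on cold 1 against 604 on normal 1, and 474 on cold 2 against 275 on normal 2, with log2 ratios of -0.72 and 0.78 in number 1 and number 2 and a log2 difference between labels of 0.034 ± 0.51 (SE, n = 2 each). The lower value in cold was thus seen at the brighter probe set and not at the other. Signals of nova2, a neuronal splicing regulator, were 196 on cold 1 against 435 on normal 1, and 141 on cold 2 against 144 on normal 2, and those of celf2, which binds GU-rich RNA, were 359.8 on cold 1 against 802 on normal 1, and 273 on cold 2 against 238 on normal 2. In both genes normal 1 alone was high. The log2 difference of nova2 was -0.59 ± 0.57 (SE, n = 2 each), with a limma adjusted p of 0.99997, and without normal 1 it was 0.21, so that its sign rested on that array.

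The neuronal ELAV gene elavl4, whose protein stabilises mRNAs with AU-rich elements, had signals of 1565 on cold 1 against 1313 on normal 1, and 575 on cold 2 against 1170.2 on normal 2. Cold 2 was lower than the other arrays. Neuron markers, summed, were at their lowest on normal 1 and next lowest on cold 2, and their part in the values of these neuronal genes was not tested. Signals of khdrbs1a, a gene for the RNA-binding protein SAM68, were 2402 on cold 1 against 3348 on normal 1, and 2014 on cold 2 against 1426 on normal 2. Its paralog khdrbs1b had signals of 838 on cold 1 against 344 on normal 1, and 474 on cold 2 against 730.0 on normal 2, high where cold 1 and normal 2 were high for hnrnpa1b.

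The PABPC and IGF2BP genes act mainly in the cytoplasm, on poly(A) tails and on the stability and transport of mRNAs. Of these 6 genes 3 were above the filter, and igf2bp1, igf2bp3 and pabpc1l were not. Signals of pabpc1a, a poly(A)-binding protein, were 4709 on cold 1 against 7868 on normal 1, and 6692 on cold 2 against 5697 on normal 2, from a probe set whose name suffix marks possible cross-hybridization. Signals of pabpc1b were 2200.3 on cold 1 against 1281 on normal 1, and 2301 on cold 2 against 3338 on normal 2. Normal 1 was the highest array for pabpc1a and the lowest for pabpc1b. The remaining members below the filter were celf3a, elavl2 and ptbp1b, so that 6 of 66 were left out of the counts over 60 members.

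Zebrafish carry many of these genes as pairs left by a genome duplication in teleost ancestors. Pairs were matched here by symbol alone, so not every pair, tra2 among them, need come from that duplication. Among members, 13 pairs of symbols that differ in a final a or b were on the array, and both genes of 12 pairs were above the filter. In 6 pairs the partners had ratios of the same sign in both numbers, namely cirbp, elavl1, hnrnpab, srsf1, srsf5 and srsf6. In 4 pairs, khdrbs1, pabpc1, srsf2 and tra2, the signs were opposite in both numbers. The tra2 pair was the widest apart in number 1. Signals of tra2a were 757 on cold 1 against 1124 on normal 1, and 562 on cold 2 against 393 on normal 2, against the opposite order for tra2b given above. Signals of srsf2b were 339 on cold 1 against 236 on normal 1, and 309.8 on cold 2 against 437 on normal 2, so that normal 1 was the lowest array for srsf2b and the highest for srsf2a. In the srsf2 and tra2 pairs each partner thus turned round between numbers, and the partners turned round against each other.

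**Figure D4:**
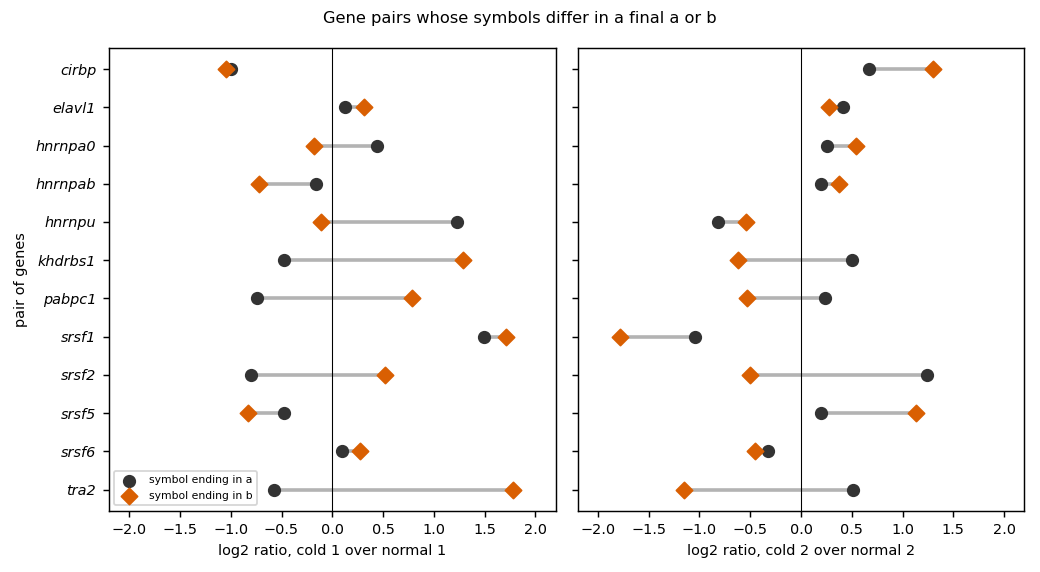
Log2 ratio of cold 1 over normal 1 (left) and of cold 2 over normal 2 (right) for 12 pairs of genes whose symbols differ in a final a (circle) or b (diamond), joined by a grey line. Partners lie on the same side of 0 in both panels for 6 pairs and on opposite sides in both panels for khdrbs1, pabpc1, srsf2 and tra2.

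Genes with several probe sets show how far a value depends on the probe set that was read. The members had 99 probe sets, of which 86 were above the filter, and 14 members had at least 2 of these. In 6 of the 14, or 42.9%, the log2 ratios of 2 probe sets lay at least 1 apart within a number, against 15.1% of the 795 genes with several probe sets. Members with more probe sets have more chances of such a gap, and khdrbs1a had 6. In none of the 14 was 1 probe set at least 2-fold higher and another at least 2-fold lower in the same number.

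The brightest probe set of khdrbs1a, given above, had log2 ratios of -0.48 and 0.50 in number 1 and number 2. Another of its probe sets read 337 on cold 1 against 91.7 on normal 1, and 53.8 on cold 2 against 196 on normal 2, with log2 ratios of 1.88 and -1.86. For hnrnpa0b, named with the other genes of this group after the values had been seen, the brightest probe set read 2445 on cold 1 against 2777 on normal 1, and 2313 on cold 2 against 1593 on normal 2, and another read 304 on cold 1 against 81.2 on normal 1, and 48.9 on cold 2 against 167 on normal 2. In both genes the dimmer probe set was high on cold 1 and normal 2, as hnrnpa1b was, and the brightest was not. The probe sets of nova2 also parted, since a second one read 151 on cold 1 against 681 on normal 1, and 110.1 on cold 2 against 112 on normal 2, with normal 1 higher still, and a further one read 116 on cold 1 against 65.8 on normal 1, and 103 on cold 2 against 134 on normal 2, with normal 1 lowest. The probes' positions on the transcripts were not used here, and the cause of these gaps was not tested.

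**Figure D5:**
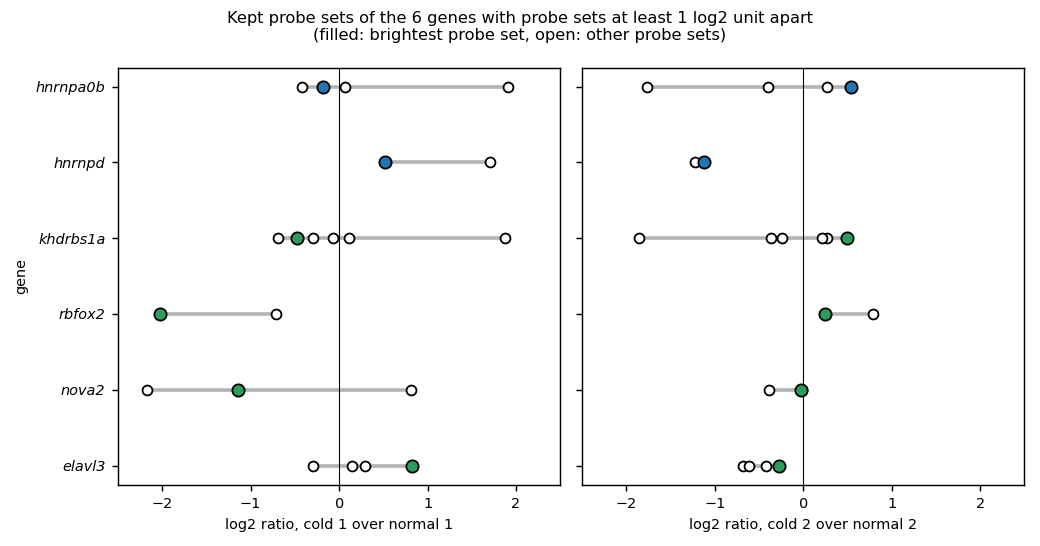
Log2 ratio of cold 1 over normal 1 (left) and of cold 2 over normal 2 (right) for each probe set above the filter of hnrnpa0b, hnrnpd, khdrbs1a, rbfox2, nova2 and elavl3, with the brightest probe set filled. In hnrnpa0b and khdrbs1a a single probe set lies far from the others in both panels, to the right in number 1 and to the left in number 2.

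Genes that work with the members were read from separate lists. Of 116 genes on a list of other RNA-binding splicing regulators and related proteins, 70 had a probe set of 1 symbol on the array. Of these 70, 63 were above the filter, and their median log2 ratios were -0.03 in number 1 and 0.11 in number 2. In number 1, 7 of them were at least 2-fold higher on the cold array and 8 lower, and in number 2, 4 were higher and 3 lower, beside the shares of all genes given above. Both cold arrays were above both normal arrays in 5 and below them in 8, where 8.78% and 5.47% of all genes did so, and none passed limma's adjusted threshold. The RNA-binding gene rbmx, which encodes hnRNP G and was named after its values had been seen, had signals of 856 on cold 1 against 68.8 on normal 1, and 68.3 on cold 2 against 570.0 on normal 2. It had the order of hnrnpa1b, high on cold 1 and normal 2, at a wider gap.

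Kinases phosphorylate the serines of SR proteins and so steer them between nuclear speckles, transcripts and the cytoplasm. A list of 29 genes held such kinases, importers of SR proteins and some phosphatase subunits, and 15 of them had a probe set of 1 symbol. Of these 15, 13 were above the filter, with median log2 ratios of 0.26 in number 1 and -0.12 in number 2. None passed limma's adjusted threshold. In number 1, 2 were at least 2-fold higher on the cold array, where 8.61% of all genes were. In number 2, 1 was at least 2-fold lower, where 3.93% of all genes were. Signals of clk4a, a CDC-like kinase of SR proteins named after its values had been seen, were 1649 on cold 1 against 639 on normal 1, and 479 on cold 2 against 1155 on normal 2. Signals of srpk1a, an SR protein kinase also named outside the rule, were 640.3 on cold 1 against 385 on normal 1, and 383 on cold 2 against 713 on normal 2. Both were higher on cold 1 and normal 2 than on the other arrays, which did not hold for all genes of the list. Signals of clk2b, for example, were 225 on cold 1 against 188 on normal 1, and 363 on cold 2 against 241 on normal 2.

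Markers of other cell types also differed between arrays. Summed signals of the 9 red blood cell markers on the array were 20729 on cold 1, 14283 on normal 1, 12610 on cold 2 and 21996 on normal 2. The arrays with high hnrnpa1b, srsf1a, srsf1b and tra2b, cold 1 and normal 2, thus also held more signal of these markers. This order was not particular to blood. Sums of neuron, radial glia, myelin, vessel, and retina and pineal markers were also higher on cold 1 and normal 2 than on normal 1 and cold 2. Those of microglia and leukocyte, muscle and skin markers were not. Skin sums were 3154 and 4084 on cold 1 and cold 2, against 2316 and 2791 on normal 1 and normal 2. Both cold arrays lay above both normal arrays in 4 of the 7 skin markers and 5 of the 8 muscle markers above the filter. Over all genes tested the share was 8.78%. The sums include markers below the filter and are weighted to the brightest genes, and single markers could differ from the sum of their type. Among radial glia markers, for example, gfap had the reverse order and slc1a2b was highest on cold 2. The neuron markers stmn2a and uchl1 were lower on cold 1 than on normal 1. These markers were named after their values had been seen. For the 9 skeletal muscle markers the sums were 4549 on cold 1, 1232 on normal 1, 1451 on cold 2 and 1266 on normal 2, so that cold 1 stood apart from every other array. Median log2 ratios in number 1 and number 2 were 0.62 and -0.36 for radial glia, 0.26 and -0.08 for myelin, and -0.41 and 0.31 for microglia and leukocytes. They were 0.63 and -0.15 for vessels, 0.61 and 0.45 for skin, and 0.00 and -0.85 for retina and pineal. For neurons they were 0.58 and -0.19, and for muscle 2.03 and 0.16. In bulk RNA, fewer cells of a type and less RNA per cell cannot be told apart, and the part of cell composition in the members' values was not tested.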

How the data were processed

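Zebrafish Genome Arrays hybridized with RNA of pooled brains were read from 4 samples, 2 cold and 2 normal, grouped by their labels. The authors ran Affymetrix software after scanning (the submitters' processing notes name MAS5, without a version) and deposited, for each probe set, a linear intensity. The sources used here do not give its scaling target, detection calls or filters. Because arrays were scaled as a whole, a shift shared by most transcripts would be hidden.

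The deposited intensity was converted to log2, and 115 controls were dropped. Of 15502 probe sets, 9301 averaged at least the 40th percentile of log2 signal (6.22, a signal of 74.5) and were tested. Cold and normal were compared in R 4.3.3 by limma 3.58.1, unpaired, with an eBayes trend and Benjamini-Hochberg adjustment over all 9301 at a threshold of 0.05, and this step was tested on simulated data. SAM, which the paper names, was not used, since so few arrays allow few relabellings. Genes came from the platform annotation, which gave 1 symbol to 10795 probe sets, several to 135 and none to 4572, and symbols were updated by gene ID through a table of assembly GRCz12tu (8720 of 8793 genes, all 66 members). A gene with several probe sets was read at the brightest by mean log2 signal. The precision is limited by the number of arrays.

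The rule for named genes took both cirbp genes, the 2 members of each family group with the highest mean signal, the 3 with the smallest p in each direction, and the 5 highest and 5 lowest ratios in each number, 26 genes in all, and allowed their paralog partners. Members and lists were chosen with earlier results of these data known. Alternatives were quantile normalization, median centring, a pseudocount of 16, an unfiltered table, a 60th percentile filter, eBayes without a trend, the mean of a gene's probe sets, a replicate block and leaving out each array. Protein and promoter sequences were not used here.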

Additional observations from a re-analysis of the deposited data

How the results depend on the processing

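None of the 9301 probe sets passed the adjusted threshold in limma, where 46 had an unadjusted p under 0.05. The number called was 0 under quantile normalization, median centring, a pseudocount of 16, no filter, the 60th percentile filter, eBayes without a trend and each left-out array. With a replicate block 0 were called as well, and 39 had an unadjusted p under 0.05. With a crossed replicate block, chosen after seeing the data, 1 was called.

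Leaving out 1 array at a time gave log2 differences from -0.59 to 0.26 for cirbpa, from -0.49 to 0.75 for cirbpb, from -0.041 to 0.73 for hnrnpm and from -1.39 to 0.21 for nova2, whose signs thus depended on single arrays. The sign held for hnrnpdl (0.044 to 0.50), ptbp3 (0.013 to 0.67), rbfox1 (-0.84 to -0.021) and rbfox2 (-1.55 to -0.22), though it came near 0 without 1 array for hnrnpdl, ptbp3 and rbfox1. The members' median log2 difference of 0.02 was -0.035 after quantile normalization, -0.0082 without a filter, -0.015 for the mean of a gene's probe sets, and -0.097 to 0.11 when 1 array was left out. Taking the mean of all probe sets of a gene left 3 members at least 2-fold higher on cold 2, in place of 5, and 3 at least 2-fold lower on cold 1, in place of 5. Median centring, and a pseudocount of 16, each left 4 members at least 2-fold lower on cold 2, in place of 6. Quantile normalization left 0 members with both cold arrays above both normal arrays, in place of 1, and the 60th percentile filter left 1 member with both below, in place of 2. The cause of these shifts was not tested. A label carried by 2 arrays, with larger distances within labels than across some of them, limits every comparison here.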
